A study of Mus musculus with 14 samples.

Results

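Expression of 8 genes for the transcription factors that specify and maintain hepatocytes was examined in mouse hepatocellular carcinoma (HCC) cells: Hnf4a, Hnf4g, Foxa1, Foxa2, Foxa3, Onecut1, Cebpa and Prox1. The members were chosen by name, and all 8 were found among 24972 listed gene symbols. RNA-seq covered 4 libraries each of WT and ACLY KO cells and 3 libraries each of ACSS2 KO and DKO1 (ACLY and ACSS2 double knockout) cells, 14 in all. All cells descended from a diethylnitrosamine-induced tumor line carrying floxed Acly alleles (Acly f/f), and all were grown for 24 hours in DMEM with 10% calf serum before RNA was taken. WT cells kept the floxed alleles and were a bulk population with the empty LentiCRISPR v2 vector. ACLY KO cells had been given adenoviral Cre, passed through a single-cell clonal population and then received the same empty vector. ACSS2 KO and DKO1 cells received a guide to the first exon of Acss2 in WT and ACLY KO cells, respectively, and each was grown from a single-cell clone. Each knockout genotype is thus represented by 1 clonal line, and an effect of the genotype cannot be told apart from a property of that clone. DKO1 was made from ACLY KO cells, so both lines without ACLY share that origin and are not independent cases of ACLY loss. The RNA-seq was a single experiment. The study calls its libraries biological replicates without saying what separated them, so the p-values below measure the spread between libraries of 1 line.

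ACLY makes cytosolic acetyl-CoA from citrate and ACSS2 makes it from acetate, and the series asked which transcripts differ when either or both enzymes are lost. The 8 factors work as a network in the liver. HNF4α is a nuclear receptor that drives apolipoprotein, coagulation and drug metabolism genes, and HNF4γ is its paralog. FOXA1, FOXA2 and FOXA3 are forkhead pioneer factors that open liver enhancers, ONECUT1 (HNF6) acts in hepatoblasts and bile ducts, C/EBPα drives metabolic genes of the mature hepatocyte, and PROX1 is needed for hepatoblast migration and also specifies lymphatic endothelium.

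Promoter windows are shown for Hnf4a, which was lower in every knockout line, and for Foxa1 and Foxa2, which moved in opposite directions with ACLY loss. Windows of 250 bases before a RefSeq start (GRCm38.p6) were found for 7 members, 11 windows in all, and bases inside an annotated exon are left out of those printed. Hnf4a has an upstream and a downstream promoter, the latter active in adult hepatocytes, and the values per gene do not separate their transcripts. Foxa1 lies on the minus strand of chromosome 12 and Foxa2 on the minus strand of chromosome 2. Capitals mark motif matches, and each window is read on the strand of its gene.
Hnf4a upstream promoter, chr2:163506607-163506807, plus strand: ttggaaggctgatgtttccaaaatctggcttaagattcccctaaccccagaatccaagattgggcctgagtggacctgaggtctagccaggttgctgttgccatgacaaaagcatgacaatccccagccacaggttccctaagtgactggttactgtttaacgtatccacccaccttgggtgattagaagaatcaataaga
Hnf4a downstream promoter, chr2:163546943-163547154, plus strand: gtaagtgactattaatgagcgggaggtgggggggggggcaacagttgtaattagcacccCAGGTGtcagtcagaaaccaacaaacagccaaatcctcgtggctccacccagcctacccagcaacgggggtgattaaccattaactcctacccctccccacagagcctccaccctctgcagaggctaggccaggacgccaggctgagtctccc
Foxa1 promoter, chr12:57546122-57546361, minus strand: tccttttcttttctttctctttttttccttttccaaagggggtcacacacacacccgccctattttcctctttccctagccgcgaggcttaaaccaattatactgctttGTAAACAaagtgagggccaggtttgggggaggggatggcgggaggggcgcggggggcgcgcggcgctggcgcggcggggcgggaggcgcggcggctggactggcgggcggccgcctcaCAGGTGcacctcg
Foxa2 promoter, chr2:148046970-148047219, minus strand: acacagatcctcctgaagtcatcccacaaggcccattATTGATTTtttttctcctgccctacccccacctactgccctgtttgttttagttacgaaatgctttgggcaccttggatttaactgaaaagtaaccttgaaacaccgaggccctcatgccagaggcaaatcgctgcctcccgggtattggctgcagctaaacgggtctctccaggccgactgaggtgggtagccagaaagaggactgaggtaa

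Motifs were searched on both strands of the full windows, and no match overlapped another. The forkhead motif TGTTTAC was found in 1 of the 11 windows, that of Foxa1, 141 to 135 bases before the start, and in 3.17% of 32851 promoters. The ONECUT motif ATTGATTT was found only in the Foxa2 window shown, 213 to 206 bases before the start, and in 1.14% of all promoters. The E-box CACCTG was found 23 to 18 bases before the Foxa1 start, 153 to 148 bases before the downstream Hnf4a start and in the Foxa3 window, and in 17.2% of all promoters. The HNF4 motif CAAAGTCCA (0.384% of all promoters), the C/EBP motif TTGCGCAA (0.164%), the HNF1 motif TTAATNATT (1.40%) and the GATA motif AGATAAG (2.74%) were in none of the 11 windows. The Hnf4a windows held 3 and 4 CpG dinucleotides, the Foxa1 window 21 and the Onecut1 window 31, against a median of 6 over all promoters. The Foxa2 window shown held 6, and its other windows, without a motif match, held 20 and 13.

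Levels are given in normalized counts, the unit of the deposited values after DESeq scaling by the authors. Library totals were between 23565707 and 26946164 normalized counts, and 1 read was worth an estimated 0.717 to 1.33 of them. The 12711 genes whose mean over the 14 libraries reached 10 were compared with limma on log2(value + 1). A gene was called at an adjusted p under 0.05, and a stricter call took an adjusted p under 0.01 and an absolute log2 difference over 1.5. Fold differences below are on the log2(value + 1) scale, which understates the change of low genes. Acly mRNA was 5461 to 6435 normalized counts in WT and ACSS2 KO libraries and 931.2 to 1084 in ACLY KO and DKO1 libraries, as labelled. Acss2 mRNA remained detectable in the edited lines, at 126.7 to 135.5 normalized counts in ACSS2 KO against 224.5 to 251.6 in WT, and at 455.1 to 578.0 in DKO1 against 660.4 to 787.3 in ACLY KO. In WT replicate 2, ACLY KO replicate 4, ACSS2 KO replicate 1 and DKO1 replicate 4, values fell with transcript length relative to their own group (Spearman correlation −0.67 to −0.52 across 12577 genes). Counts of members called are therefore also given without these 4 libraries, a choice made after the data were seen.

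The cells were labelled as liver cancer, but defining products of mature hepatocytes were largely missing. Of 18 hepatocyte markers, 13 had a mean under 10 normalized counts, and Tdo2 was at 0 in every library. Apoa1, named as an example after its values were seen, had a mean of 0.62 in WT and was at 0 in every ACLY KO library. The summed level of the list was 292 to 374 normalized counts in WT, 177 to 218 in ACLY KO, 408 to 429 in ACSS2 KO and 476 to 837 in DKO1. The DKO1 sum was carried by Tat, at 332.2 ± 54.5 (SD, n = 3), and Apob, at 282.3 ± 163 (SD, n = 3), although Apob was at 94.30 in DKO1 replicate 4. Alb, named after its values were seen, and Fah were lower in DKO1 than in WT (log2 differences −1.46 and −2.59, adjusted p = 7.29e-05 and 3.31e-07, limma). Of 11 biliary and progenitor markers, 10 passed the filter, and their sum was 35323 to 77711 over all libraries, with Krt7 at 13364 ± 1959 (SD, n = 4) and Spp1 at 14930 ± 1191 (SD, n = 4) in WT. Not every marker of that list was high, as Epcam had a mean of 10.2 over all libraries. All 13 mesenchymal markers passed the filter, with a sum of 118407 to 152394. Vim and Fn1 made up most of that sum, with means of 86263 and 41211, while Snai1 and Twist2 had means of 18.1 and 41.8. The part of these markers in the results below was not tested, and in bulk RNA fewer expressing cells and less RNA per cell cannot be told apart.

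**Figure D1:**
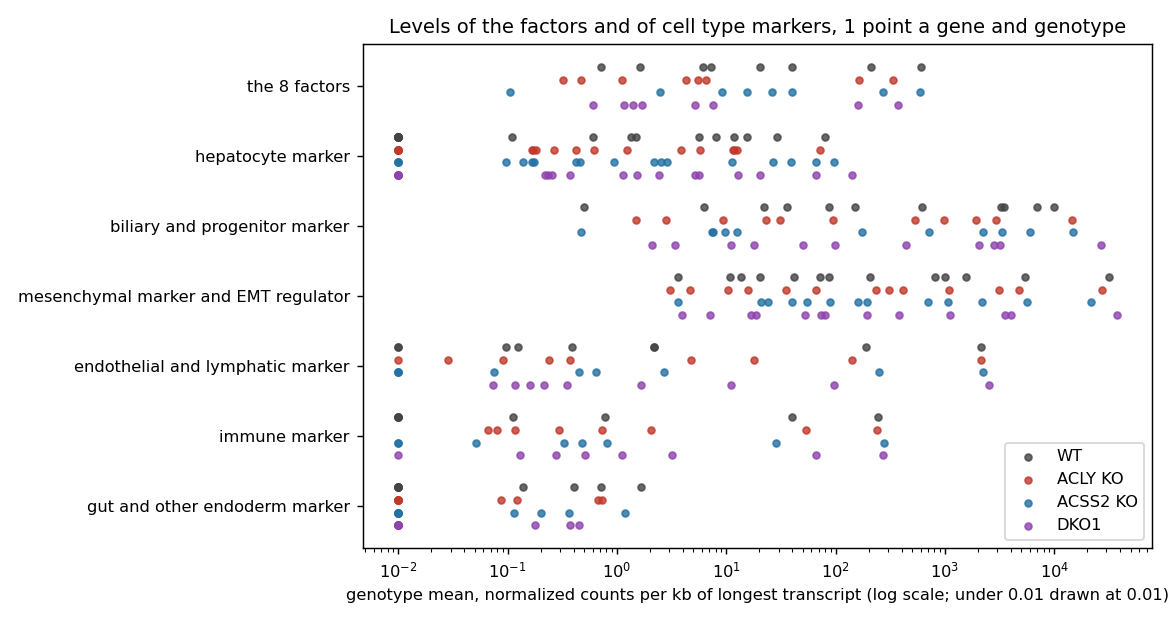
Genotype means in normalized counts per kb of the longest transcript (log x axis, values under 0.01 drawn at 0.01) for the 8 factors and 6 lists of cell type markers, with 1 point per gene and color for genotype. Hepatocyte markers lie mostly low or at 0, while biliary and mesenchymal markers reach far higher in all 4 genotypes.

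Per length, Foxa1 and Foxa2 stood far above the other members in WT. In WT, Foxa2 had 604 normalized counts per kb, above 75.6% of the tested genes, and Foxa1 had 210, above 49.9%. Hnf4a followed with 39.5, Cebpa with 20.4, Prox1 with 7.30 and Onecut1 with 6.11 per kb, none of them above more than 21.4% of the tested genes. Hnf4g and Foxa3 had means of 1.04 and 2.90 normalized counts over the 14 libraries and did not pass the filter, so 6 of 8 members were tested.

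**Figure D2:**
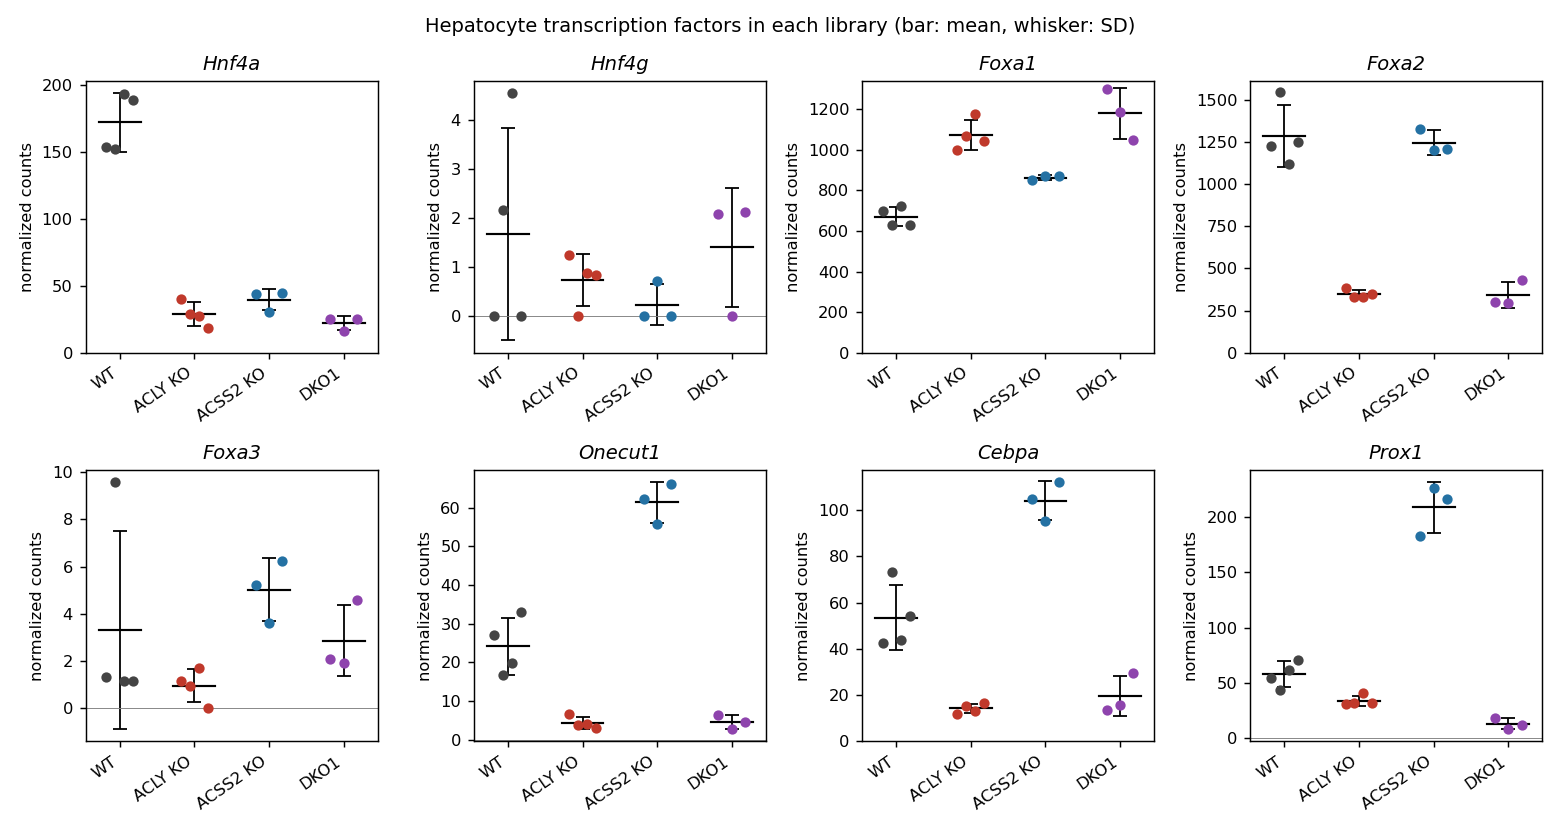
Normalized counts of the 8 factors (y axes, each panel on its own scale) in each library by genotype, with the mean as a bar and the SD as a whisker. Hnf4a is high only in WT, Foxa2 is high in WT and ACSS2 KO, and Onecut1, Cebpa and Prox1 are highest in ACSS2 KO.

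The nuclear receptor gene Hnf4a (chr2:163506808-163572910, plus strand) was lower in every knockout line than in WT. WT libraries had 154.0, 152.5, 193.4 and 188.9 normalized counts, and ACLY KO libraries had 39.99, 29.25, 27.27 and 18.18. ACSS2 KO libraries had 43.81, 30.73 and 44.83, and DKO1 libraries had 25.57, 16.35 and 25.37. Every WT library lay above every knockout library, while ACLY KO overlapped with both other knockout lines and ACSS2 KO lay above DKO1. Against WT, Hnf4a was 6.01-fold lower in ACLY KO (log2 difference −2.59, 95% interval −3.08 to −2.10, adjusted p = 7.99e-07, limma), below all but 1.24% of the tested genes. It was 4.28-fold lower in ACSS2 KO (log2 difference −2.10, interval −2.63 to −1.57, adjusted p = 3.92e-05) and 7.49-fold lower in DKO1 (log2 difference −2.90, interval −3.44 to −2.37, adjusted p = 5.51e-07). DKO1 differed from ACSS2 KO by −0.81 (adjusted p = 0.0197), and this call was lost in a fit of only those groups (adjusted p = 0.0524) and without ACSS2 KO replicate 1, ACSS2 KO replicate 4 or DKO1 replicate 3 (adjusted p = 0.0649, 0.0713 and 0.0816). The antisense gene Hnf4aos overlaps Hnf4a and had at most 3.43 normalized counts in any library. Its paralog Hnf4g (chr3:3508030-3658052, plus strand) was at 0 in 6 libraries and at most 4.54 in the others, too low to compare.

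Among the pioneer factors, Foxa2 fell with ACLY loss and Foxa1 rose. Foxa2 (chr2:148042877-148046969, minus strand) had 1227, 1547, 1121 and 1250 normalized counts in WT and 1329, 1201 and 1206 in ACSS2 KO. It had 384.2, 332.8, 329.7 and 348.6 in ACLY KO and 299.1, 297.1 and 429.5 in DKO1. The 7 libraries with ACLY all lay above the 7 without it, and within each of these classes the genotypes overlapped. Foxa2 was 3.66-fold lower in ACLY KO than in WT (log2 difference −1.87, interval −2.14 to −1.60, adjusted p = 6.49e-08) and 3.69-fold lower in DKO1 than in ACSS2 KO (log2 difference −1.88, interval −2.19 to −1.57, adjusted p = 1.88e-07). With ACSS2 loss the difference was −0.037 in WT cells (interval −0.33 to 0.25, adjusted p = 0.883) and −0.048 in ACLY KO cells (interval −0.34 to 0.24, adjusted p = 0.817).

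Foxa1 (chr12:57540628-57546916, minus strand) had 700.7, 631.3, 722.6 and 631.6 normalized counts in WT and 851.9, 870.1 and 869.5 in ACSS2 KO. It had 998.6, 1070, 1174 and 1046 in ACLY KO and 1302, 1186 and 1050 in DKO1. WT, ACSS2 KO and ACLY KO followed each other without overlap, and DKO1 overlapped with ACLY KO. The rise against WT was 1.60-fold in ACLY KO (log2 difference 0.67, interval 0.51 to 0.84, adjusted p = 9.73e-06), 1.29-fold in ACSS2 KO (log2 difference 0.37, interval 0.18 to 0.55, adjusted p = 0.00573) and 1.75-fold in DKO1 (log2 difference 0.81, interval 0.63 to 0.99, adjusted p = 3.49e-06). These rises were moderate among all genes, since 12.6%, 17.5% and 13.4% of the tested genes had a higher log2 difference in the respective comparison.

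The balance between both FOXA transcripts differed accordingly within libraries. Per kb, the ratio of Foxa1 to Foxa2 was 0.381, 0.272, 0.430 and 0.337 in WT and 0.428, 0.483 and 0.481 in ACSS2 KO. It was 1.73, 2.14, 2.38 and 2.00 in ACLY KO and 2.90, 2.66 and 1.63 in DKO1. Foxa2 was thus the more abundant transcript in every library with ACLY and Foxa1 in every library without it. The sum of both, in normalized counts per kb, was 753 to 925 in WT and 837 to 891 in ACSS2 KO, and was 492 to 523 in ACLY KO and 511 to 549 in DKO1, without overlap between the lines with and without ACLY. DKO1 replicate 4 had the lowest ratio of the libraries without ACLY and is also the library whose values fell most steeply with transcript length. Foxa3 (chr7:19013284-19023538, minus strand) had 9.58 normalized counts in WT replicate 2 and 0 to 6.23 in the other libraries, and was not compared.

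**Figure D3:**
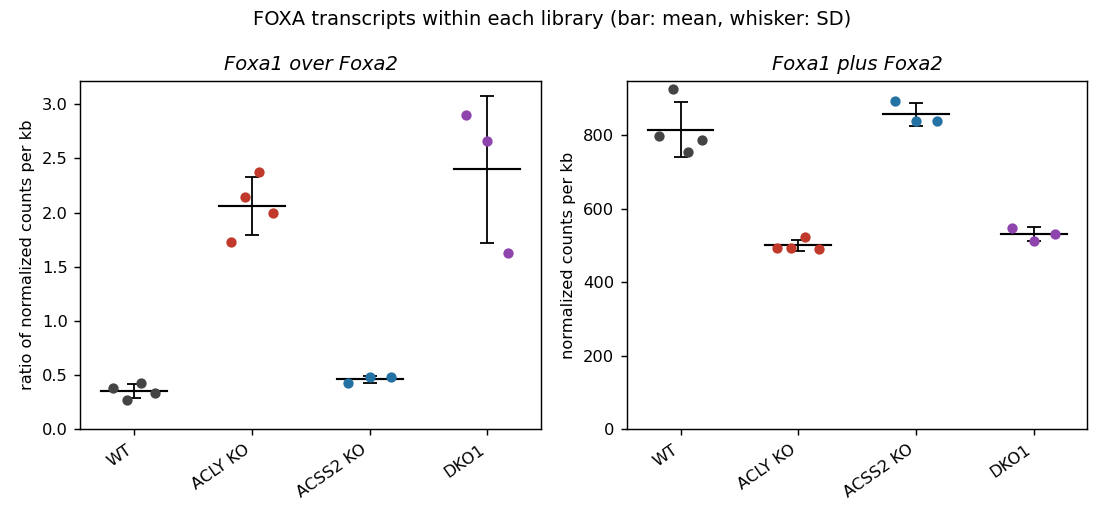
Left, ratio of Foxa1 to Foxa2 in normalized counts per kb, and right, their sum per kb, in each library by genotype, with the mean as a bar and the SD as a whisker. The ratio is 0.272 to 0.483 in WT and ACSS2 KO and 1.63 to 2.90 in ACLY KO and DKO1.

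Onecut1, Cebpa and Prox1 shared a pattern: lower in ACLY KO, higher in ACSS2 KO and lower in DKO1 than in WT. Onecut1 (chr9:74861921-74891781, plus strand) had 27.13, 16.65, 19.90 and 33.05 normalized counts in WT and 62.26, 55.73 and 66.06 in ACSS2 KO. It had 6.62, 3.82, 4.15 and 3.14 in ACLY KO and 6.45, 2.77 and 4.63 in DKO1, a handful of reads per library. ACSS2 KO, WT and the ACLY-deficient lines did not overlap, and ACLY KO and DKO1 spanned nearly the same range. Onecut1 was 4.61-fold lower in ACLY KO (log2 difference −2.20, interval −2.81 to −1.60, adjusted p = 2.23e-05) and 2.55-fold higher in ACSS2 KO (log2 difference 1.35, interval 0.70 to 2.00, adjusted p = 0.00471) than in WT. It was 4.51-fold lower in DKO1 than in WT (log2 difference −2.17, adjusted p = 4.40e-05).

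Cebpa (chr7:35119293-35121928, plus strand) had 42.57, 73.28, 43.92 and 54.30 normalized counts in WT and 104.7, 95.09 and 111.8 in ACSS2 KO. It had 12.06, 15.31, 13.35 and 16.58 in ACLY KO and 13.79, 15.58 and 29.69 in DKO1. ACSS2 KO lay above WT and WT above both ACLY-deficient lines without overlap, and DKO1 replicate 4 stood above the ACLY KO range. Cebpa was 3.50-fold lower in ACLY KO (log2 difference −1.81, interval −2.31 to −1.30, adjusted p = 2.73e-05) and 2.72-fold lower in DKO1 (log2 difference −1.44, interval −1.99 to −0.90, adjusted p = 0.000317) than in WT. In ACSS2 KO it was 1.97-fold higher (log2 difference 0.97, interval 0.43 to 1.52, adjusted p = 0.0116), a call that was lost without ACSS2 KO replicate 4 (adjusted p = 0.0522) and with quantile normalization (adjusted p = 0.0501). An antisense gene, Gm45091, overlaps Cebpa, and the strand setting of the counting is not given in the sources used here.

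Prox1 (chr1:190118035-190170714, minus strand) had the widest span of genotype means among the tested members as a ratio of the highest to the lowest. It had 54.30, 43.44, 62.07 and 71.13 normalized counts in WT and 182.9, 226.4 and 216.3 in ACSS2 KO. It had 31.19, 31.47, 40.51 and 31.60 in ACLY KO and 18.56, 8.77 and 12.45 in DKO1. From ACSS2 KO through WT and ACLY KO to DKO1, no genotype overlapped with the next. Prox1 was 3.61-fold higher in ACSS2 KO (log2 difference 1.85, interval 1.37 to 2.34, adjusted p = 5.22e-05) and 4.22-fold lower in DKO1 (log2 difference −2.08, interval −2.56 to −1.59, adjusted p = 4.96e-06) than in WT. The fall in ACLY KO was smaller, with a log2 difference of −0.75 (interval −1.19 to −0.30, adjusted p = 0.00922). DKO1 and ACSS2 KO differed by −3.93 (interval −4.45 to −3.41, adjusted p = 2.30e-08), below all but 0.0629% of the tested genes. The antisense genes Prox1os and Gm28172 overlap Prox1 and have no values of their own here. PROX1 also marks lymphatic endothelium, and of 9 endothelial and lymphatic markers 3 passed the filter, with a summed level of 4751 to 5780 normalized counts over all libraries. Pdpn and Flt4 made up most of that sum, with means of 4072 and 1055, while Lyve1, Stab2, Tek and Emcn had means of 0.26 to 0.43. Over all tested genes, 48.5%, 26.0% and 56.0% were called against WT in ACLY KO, ACSS2 KO and DKO1. Of the 3 tested markers, 1 rose in ACLY KO, 0 were called in ACSS2 KO, and 2 rose and 1 fell in DKO1. The latter, Flt4, a lymphatic growth factor receptor, was lower in DKO1 than in WT (log2 difference −0.97, adjusted p = 0.000347). The 2 that rose in DKO1 were Pdpn (0.23, adjusted p = 0.0129) and Pecam1 (2.27, adjusted p = 2.51e-05). Pecam1, outside the naming rule with a mean of 29.8, was also the 1 that rose in ACLY KO (2.97, adjusted p = 1.19e-06). The part of these markers in the Prox1 result was not tested.

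**Figure D4:**
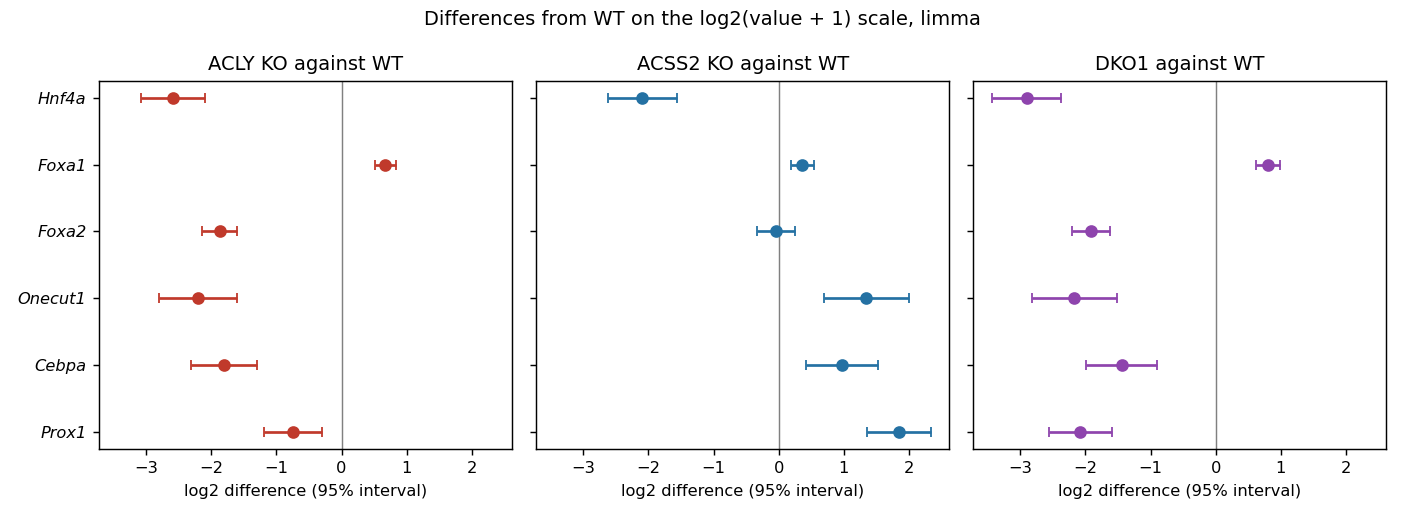
Log2 differences from WT (x axes, log2(value + 1) scale) of the 6 tested factors in ACLY KO, ACSS2 KO and DKO1, with 95% intervals from limma as whiskers. Foxa1 lies right of 0 in all 3 panels, Hnf4a lies left in all 3, and Onecut1, Cebpa and Prox1 change side in ACSS2 KO.

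Counted together, 5 tested members were lower and 1, Foxa1, was higher in ACLY KO than in WT, where 48.5% of all tested genes were called (23.8% higher and 24.7% lower). By the stricter call, 4 members passed against 8.80% of all genes. In ACSS2 KO against WT, 4 were higher and 1, Hnf4a, was lower, against 26.0% of genes called (15.1% higher and 11.0% lower), and 2 passed the stricter call against 2.42%. In DKO1 against WT, 5 were lower and 1 higher, against 56.0% of genes called (27.9% higher and 28.1% lower), and 4 passed the stricter call against 9.84%. The median log2 difference of the tested members was −1.84, 0.67 and −2.00 in these comparisons, while the median over all tested genes was −0.0067, 0.0013 and 0.0035. With library totals made equal the median over all genes moved to 0.10 in ACLY KO and 0.11 in ACSS2 KO against WT, and the higher share of all calls moved from 49.0% to 61.9% and from 57.8% to 75.9%, while the same numbers of members were called. A transcript length correction moved the latter share to 41.9%. These comparisons share the WT libraries. Without the 4 libraries named above, the same numbers of members were called, 6, 5 and 6.

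Loss of ACLY in cells without ACSS2 was read from DKO1 against ACSS2 KO. As DKO1 was made from ACLY KO cells, this is not an independent case of ACLY loss. Of the tested members 5 were lower and Foxa1 was higher in DKO1, against 53.7% of genes called (25.9% higher and 27.8% lower), and 4 passed the stricter call against 11.3%. The median over members was −2.15, against 0.0057 over all genes. Onecut1 was 11.5-fold lower (log2 difference −3.52, interval −4.22 to −2.83, adjusted p = 1.00e-06), Cebpa 5.34-fold lower (log2 difference −2.42, interval −3.00 to −1.83, adjusted p = 6.58e-06) and Foxa1 1.36-fold higher (log2 difference 0.44, interval 0.25 to 0.64, adjusted p = 0.00102).

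Loss of ACSS2 in cells without ACLY was read from DKO1 against ACLY KO, and there only Prox1 was called among the members. It was 2.52-fold lower in DKO1 (log2 difference −1.33, interval −1.82 to −0.85, adjusted p = 0.000776), while 27.9% of genes were called (14.3% higher and 13.6% lower). Hnf4a differed by −0.32 (interval −0.85 to 0.21, adjusted p = 0.367), Onecut1 by 0.032 (interval −0.62 to 0.68, adjusted p = 0.95) and Cebpa by 0.36 (interval −0.18 to 0.91, adjusted p = 0.311). Foxa1 differed by 0.13 (interval −0.05 to 0.32, adjusted p = 0.262). Without the 4 libraries whose values fell with length, Foxa1 (log2 difference 0.20, adjusted p = 0.0410) and Foxa2 (−0.22, adjusted p = 0.0276) were called as well, so the count rose from 1 to 3.

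Whether ACSS2 loss acted alike in cells with and without ACLY was tested as an interaction, the difference between DKO1 and ACLY KO minus the difference between ACSS2 KO and WT. Each difference sets a single clone against its control line, so ACSS2 loss cannot be told apart from a property of that clone. Of the members, 1 was called higher and 2 lower, against 27.1% of all genes (12.0% higher and 15.1% lower). Equal library totals moved the higher share of all these calls from 44.3% to 28.1% and the median over all tested genes to −0.16, with 3 members called as before. Prox1 was higher in ACSS2 KO than in WT but lower in DKO1 than in ACLY KO. Its differences were themselves apart by −3.18 (interval −3.87 to −2.50, adjusted p = 1.12e-05), below all but 0.307% of the tested genes. Hnf4a was lower in ACSS2 KO than in WT. Its difference between DKO1 and ACLY KO, which already had low Hnf4a, was higher by 1.78 (interval 1.03 to 2.53, adjusted p = 0.00205). Onecut1 had an interaction of −1.32 (interval −2.24 to −0.40, adjusted p = 0.0354), and its call was lost when any of 8 single libraries was left out, with the adjusted p then between 0.0553 and 0.0840, and also with no filter on low values (0.0567), quantile normalization (0.0628) or the 4 libraries left out (0.0784). Cebpa had −0.61 (interval −1.38 to 0.16, adjusted p = 0.231), and without DKO1 replicate 4 it had −0.93 (adjusted p = 0.0256). Foxa1 had −0.23 (interval −0.49 to 0.03, adjusted p = 0.172) and Foxa2 −0.011 (interval −0.42 to 0.40, adjusted p = 0.974).

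**Figure D5:**
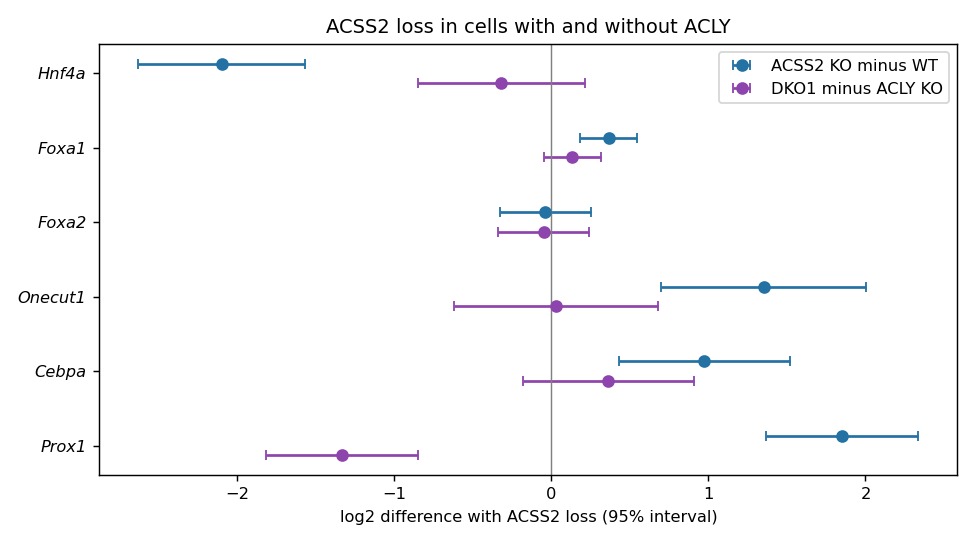
Log2 difference with ACSS2 loss (x axis, log2(value + 1) scale, 95% intervals from limma) for the 6 tested factors in cells with ACLY (ACSS2 KO minus WT) and without it (DKO1 minus ACLY KO). Prox1 lies on opposite sides of 0, and the Hnf4a interval lies wholly below 0 only in cells with ACLY.

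Of 21 other liver transcription factors, 13 passed the filter. Against WT, 2 of them rose and 5 fell in ACLY KO, 5 rose and 0 fell in ACSS2 KO, and 3 rose and 5 fell in DKO1. The 7, 5 and 8 called of 13 stand beside the 48.5%, 26.0% and 56.0% of all genes called, so the shares in ACLY KO and DKO1 were near those over all genes. Hhex, a homeobox factor of the early liver bud, had 1109 to 1414 normalized counts in WT, 502.0 to 533.7 in ACLY KO, 1575 to 1745 in ACSS2 KO and 283.4 to 300.1 in DKO1, with no overlap. Its log2 difference from WT was −1.22, 0.46 and −2.05 in the 3 knockout lines (adjusted p = 3.55e-08, 0.000962 and 9.73e-10, limma). Gata6, a zinc finger factor of the endoderm, fell in ACLY KO (−1.09, adjusted p = 2.13e-08) and DKO1 (−1.42, adjusted p = 4.54e-09) and had −0.059 in ACSS2 KO (adjusted p = 0.597). Gata4, of the same family, rose in ACSS2 KO (0.71, adjusted p = 0.00139), fell in DKO1 (−0.51, adjusted p = 0.00540) and had −0.22 in ACLY KO (adjusted p = 0.163). Cebpd, a C/EBP family member, fell in ACLY KO (−1.29, adjusted p = 0.00110) while its differences of 0.68 in ACSS2 KO and −0.22 in DKO1 did not pass (adjusted p = 0.0966 and 0.530). Atf5, a stress-responsive factor, was higher in ACLY KO, ACSS2 KO and DKO1 by 1.27, 0.73 and 0.78 (adjusted p = 1.57e-06, 0.00101 and 0.000220).

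Most textbook target genes of the factors were too low to test, and the counts below are of 3 to 5 genes a list, beside 48.5%, 26.0% and 56.0% of all genes called in ACLY KO, ACSS2 KO and DKO1 against WT. With so few genes, no list is set apart from all genes by its count. Of 22 HNF4α targets 4 were tested, of which 2 were higher and 0 lower in ACLY KO, 0 higher and 2 lower in ACSS2 KO, and 3 higher and 0 lower in DKO1 than in WT. Mttp, which loads lipid onto apolipoprotein B, was higher in ACLY KO (1.46, adjusted p = 2.40e-09) and DKO1 (1.43, adjusted p = 6.97e-09), and lower in ACSS2 KO (−0.60, adjusted p = 5.44e-05). Hnf4a itself was lower than in WT in every one of these lines. Apob, the apolipoprotein itself, was lower in ACSS2 KO (−1.79, adjusted p = 0.00850) and higher in DKO1 (1.16, adjusted p = 0.0389). In DKO1 replicate 4 it had 94.30 normalized counts, inside the WT range of 55.39 to 138.3, against 386.5 and 366.0 in replicates 1 and 3. DKO1 replicate 4 and WT replicate 2, the lowest for Apob in WT, are libraries whose values fell with transcript length. Of 12 FOXA targets 3 were tested, of which 1 was higher in ACLY KO, 1 was higher in ACSS2 KO, and 2 were higher and 1 lower in DKO1. Afp, the fetal serum protein α-fetoprotein, rose in both lines without ACLY, by 1.82 in ACLY KO (adjusted p = 0.000187) and by 2.41 in DKO1 (adjusted p = 3.00e-05). Of 13 C/EBPα targets 5 were tested, of which 2 were higher in ACLY KO, 3 were higher in ACSS2 KO, and 4 were higher and 1 lower in DKO1. Tat, a tyrosine-degrading enzyme on both the FOXA and the C/EBPα lists, had 275.7 to 384.5 normalized counts in DKO1 and 18.59 to 36.01 in the other libraries, a log2 difference of 3.53 from WT (adjusted p = 2.54e-08).

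Alb, the gene of serum albumin and a target on the FOXA and C/EBPα lists, was outside the naming rule. Its range was 27.69 to 36.86 normalized counts in WT, 20.79 to 25.39 in ACLY KO, 128.5 to 137.2 in ACSS2 KO and 7.10 to 16.41 in DKO1. By limma, Alb was higher in ACSS2 KO than in WT, with a log2 difference of 2.06 (adjusted p = 1.43e-05). Its difference of −0.41 between ACLY KO and WT did not pass (adjusted p = 0.109). The lower level in DKO1 was called, as given above. Apob and Tat, also target genes, had their highest means in DKO1, where Alb had its lowest.

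The genes whose values followed each member most closely over the 14 libraries were taken from the 11037 candidates that averaged 50 or more. The Pearson correlations of log2(value + 1) are a description, since the points share genotypes, libraries and normalization. For Hnf4a they were Selp (0.984), Atp6v0e2 (0.971) and Nes (0.962), and for Foxa1 Gaa (0.980), Lgals3bp (0.979) and Orai2 (0.978). For Foxa2 they were Spry1, Pcgf6 and Akip1 (all 0.993), and for Onecut1 Ptk7 (0.988), Kbtbd11 (0.986) and Sel1l3 (0.984). For Cebpa they were Id1 (0.987), Tmbim1 (0.987) and Nt5c3b (0.983), and for Prox1 Tshz2 (0.986), Foxo6 (0.982) and Ermp1 (0.981). None of these genes is itself one of the 8 factors.

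Genes near the members on their chromosomes were summarized as well. Within 5 Mb on either side of a tested member lay 33 to 79 tested genes, and their median log2 difference was between −0.26 and 0.32 over all 6 comparisons. Hnf4a and Foxa2 both lie on chromosome 2, whose genes had a median of 0.14 in ACLY KO and 0.28 in DKO1 against WT, opposite in sign to both members. In ACSS2 KO against WT that median was −0.061, the sign of Hnf4a. Medians of the Prox1 neighbours and of chromosome 1 had the sign of Prox1 in ACSS2 KO against WT (0.17 and 0.18) and in DKO1 against ACSS2 KO (−0.25 and −0.19). In ACLY KO against WT they had the opposite sign (0.015 and 0.043). The part of these regions in the member results was not tested.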

How the data were processed

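The authors prepared stranded poly(A) libraries, mapped single-end reads to mouse GRCm38/mm10 with STAR and obtained normalized values with Illumina's DESeq2 software, v1.0.1. Deposited values are of the kind signal: gene counts, estimated and then scaled by the authors with DESeq factors, are no longer whole reads, so no count test was run. The assignment of reads to genes and the annotation are not given in the sources used here. Groups and replicate numbers came from the sample labels. The 8 members, the gene lists and the tests were chosen with earlier results of these data known.

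Genes with a mean of at least 10 were fitted with limma 3.58.1 (R 4.3.3) on log2(value + 1), with a mean-variance trend, a coefficient for each genotype and a spread shared by all 14 libraries. The Benjamini-Hochberg adjustment ran over all 12711 tested genes. The procedure was tested on simulated data. Named genes were the members, the 3 genes most correlated with each tested member, and from each list at most 3 called genes per comparison with WT, with the largest change among those with a mean of at least 50. Of the genes so chosen, 1 is not reported here. Coordinates and lengths came from GENCODE (GRCm38) and promoters from RefSeq (GRCm38.p6). Implied depth was 19170375 to 33529721 reads per library. Counting error was not computed, since the values are not reads. Of the symbols, 26 appear as dates and were not matched.

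Alternatives were other added constants and filters, a replicate block, fits of only the groups compared, equal library totals, quantile normalization, a length correction, each library left out, and 4 libraries left out together.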

Additional observations from a re-analysis of the deposited data

Results flagged for a closer look

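For Prox1 and Hnf4a, the difference between ACSS2 KO and WT was unlike that between DKO1 and ACLY KO in a test of the difference itself. The interaction was −3.18 for Prox1 (adjusted p = 1.12e-05, limma) and 1.78 for Hnf4a (adjusted p = 0.00205). Onecut1 had an interaction of −1.32 (adjusted p = 0.0354), which lay close to the threshold and depended on single libraries. WT replicate 2 stood apart from the other WT libraries for Foxa3, with a gap of 0.979 of the group's range at 9.58 normalized counts. ACLY KO replicate 3 stood apart from the other ACLY KO libraries for Prox1, with a gap of 0.956 of the range at 40.51 normalized counts. Chance alone sets such a library apart in about 1 of 20 groups, and 16 groups of 4 libraries were examined.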

How the results depend on the processing

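The counts of members called kept their size, within 1.5 times, under other added constants, no filter on low values, equal totals, quantile normalization, the length correction, fits of only the groups compared and the replicate block, which called 6, 5, 6, 6, 1 and 3 members in the order of the comparisons above. Leaving out each library gave 4 to 5 in ACSS2 KO against WT, 5 to 6 in DKO1 against ACSS2 KO, 2 to 4 for the interaction and no change elsewhere. The stricter call left 2 members in ACSS2 KO against WT and 0 in DKO1 against ACLY KO. Requiring at least 10 in every library, which removes Onecut1 and Prox1, left 3 there, 0 in DKO1 against ACLY KO and 1 for the interaction. Leaving out the 4 libraries gave 3 in DKO1 against ACLY KO. Of single-member values, 806 kept direction and side of the threshold, 17 lost the call, 4 gained it and 19, all uncalled and near 0, changed sign. Foxa2 in ACSS2 KO against WT was 0.069 with equal totals, 0.0074 without the 4 libraries, and −0.10 to 0.055 with single libraries left out. Onecut1 in DKO1 against ACLY KO was −0.041 with the replicate block, −0.0045 with equal totals, −0.17 with quantile normalization, −0.11 without the 4 libraries, and −0.20 to 0.29 with single libraries left out. Foxa2 in DKO1 against ACLY KO was −0.22 to 0.042 with single libraries left out, and its interaction −0.19 to 0.079, or 0.065 with the replicate block. The cause was not tested. Same-numbered libraries did not deviate together (correlations −0.43 to 0.45, over 0.1 in 5 of 18 pairs), so the numbers were not taken as pairs. Over all genes, 3311 calls in ACSS2 KO against WT became 5034 with the length correction, 5086 without DKO1 replicate 4 and 6107 without the 4 libraries, 3550 in DKO1 against ACLY KO became 2168 in a fit of those groups and 5702 without the 4 libraries, and 3442 for the interaction became 5549. Depth limits Hnf4g, Foxa3 and, without ACLY, Onecut1.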

Other observations

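Among 13 mesenchymal markers and regulators of epithelial-mesenchymal transition, 5 were higher and 5 lower in ACLY KO than in WT, 4 higher and 2 lower in ACSS2 KO, and 4 higher and 5 lower in DKO1. Over all tested genes 48.5%, 26.0% and 56.0% were called in these comparisons, the background for each list here. Twist1, a regulator of that transition, and Acta2, smooth muscle actin, fell in ACLY KO, rose in ACSS2 KO and fell in DKO1, as Onecut1, Cebpa and Prox1 did. For Twist1 the log2 differences from WT were −2.44, 0.84 and −2.33 (adjusted p = 5.50e-09, 0.000435 and 1.76e-08, limma), and for Acta2 −1.39, 1.42 and −1.10 (adjusted p = 4.59e-08, 4.05e-07 and 7.40e-07). Col1a1, a fibrillar collagen, was higher in ACLY KO by 2.52 (adjusted p = 1.30e-10), with 2454 ± 164 normalized counts (SD, n = 4) there and 477.1 ± 37.5 (SD, n = 3) in DKO1. Snai2 was higher in ACLY KO by 0.79 (adjusted p = 0.000128) and in DKO1 by 1.38 (adjusted p = 1.61e-06).

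Of 10 tested biliary and progenitor markers, 7 were lower and 1 higher in ACLY KO than in WT, 4 lower and 1 higher in ACSS2 KO, and 7 lower and 2 higher in DKO1. For Krt7 and Krt19, keratins of bile duct cells, ACLY KO had log2 differences from WT of −1.73 and −1.24 (adjusted p = 1.37e-07 and 0.000111). ACSS2 KO had −0.55 and −0.18 (adjusted p = 0.00863 and 0.570), and DKO1 had −0.70 and −1.17 (adjusted p = 0.000737 and 0.000307). Spp1, with the highest mean on that list, went the other way and was higher than in WT in every knockout line. Taking the lines in the same order, its log2 differences were 0.57, 0.58 and 1.42 (adjusted p = 0.00122, 0.00427 and 8.79e-07, limma). Against WT, 1 of 5 tested hepatocyte markers rose and 1 fell in ACLY KO, 1 rose and 1 fell in ACSS2 KO, and 3 rose and 2 fell in DKO1. Fah, the last enzyme of tyrosine breakdown, was lower in ACLY KO (−2.67, adjusted p = 1.24e-07) and DKO1 (−2.59, adjusted p = 3.31e-07). Of 8 immune markers 2 were tested and 1, Cd68, was called against WT, in DKO1 (0.76, adjusted p = 0.0385), and none of 9 gut and other endoderm markers reached the filter.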
